A study of Mus musculus with 36 samples.

Results

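The comparison described here sets skeletal muscle of mdx mice against that of C57BL10 mice, averaged over 6 muscles. Its members were chosen by sample title: 11 mdx and 12 C57BL10 samples, 23 of the 36 in the series, with the 11 usable samples of mdx5cv mice as the third strain. Sampled were the diaphragm and 5 hind limb muscles: gastroc (gastrocnemius), quadriceps, soleus, TA (tibialis anterior) and EDL (extensor digitorum longus). Every muscle had 2 arrays per strain in the labels, and each array carried RNA combined from 5 male animals that were 8 weeks old. No treatment was named. C57BL10 is the normal strain, and mdx and mdx5cv each carry a point mutation of Dmd, the gene of dystrophin. mdx gastroc sample 2 was an exact copy of mdx quadriceps sample 2 and was left out, as was mdx5cv gastroc sample 1, a copy of mdx5cv quadriceps sample 1. mdx gastroc thus rested on 1 array, assumed to vary like the other groups. Fits without that array left gastroc out of the mdx average. Whether samples 1 and 2 were separate pools, and whether the muscles came from the same mice, is not stated in the labels, so p-values measure only the spread between these samples. mdx EDL sample 1 was placed by its title and source name, while its description names mdx5cv, and counts without it are given where they move.

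Dystrophin ties the cytoskeleton of the muscle fibre, through a complex of membrane proteins, to laminin in the surrounding matrix. Fibres without it are damaged by contraction, die, are cleared by macrophages and are replaced from satellite cells, which pass through embryonic forms of the contractile proteins. In mdx limb muscles this cycle of damage and repair is known to be active at a young adult age, with fibrosis most severe in the diaphragm.

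All values are scaled fluorescence signals of Affymetrix MG_U74Av2 arrays, and a difference is the mean of the 6 muscle differences in log2 signal, each muscle with equal weight. A difference was called at a Benjamini-Hochberg adjusted p under 0.05 in limma, two-sided, over the 7453 probe sets that passed the filter on low signal. That filter used the mean over all 3 strains, so a gene low in C57BL10 could enter through its signal in the mutants. Counts among tested genes can therefore lean towards genes high in the mutants. Levels are compared between samples and not between genes. Unless another muscle or model is named, an adjusted p is that of the averaged limma test. Median signals of the 36 columns lay between 458.0 and 1026.3. Precision is limited by the number of arrays. C57BL10 TA sample 2 had a median Spearman correlation with the other arrays of 0.621 and mdx5cv quadriceps sample 2 of 0.769, against 0.835 to 0.934 for the rest. Scan periods, known for 30 arrays, were also unequal between the strains: the first held 5 C57BL10 arrays and no mdx array, the second 5 mdx and no C57BL10 array, and the third 4 C57BL10 and 5 mdx arrays. In the third period only EDL, quadriceps and soleus had arrays of both strains. Fits on that period alone used an additive model of strain and muscle, so they do not check each of the 6 muscles. The actin 3'/5' signal ratio, a measure of RNA integrity, was 0.768 ± 0.114 (SD, n = 12) in C57BL10, 1.10 ± 0.343 (SD, n = 11) in mdx and 1.03 ± 0.126 (SD, n = 11) in mdx5cv, and its part in the results was not tested. The skeletal muscle markers were abundant on every array, with a mean log2 signal of 14.06 to 15.34 in C57BL10 and 14.02 to 15.31 in mdx.

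The Dmd transcript, which carries the mutation, was measured first. Its signal ran from 368.6 to 1928.2 with a median of 668.4 in C57BL10, and from 104.2 to 586.5 with a median of 216.5 in mdx. Of the 11 mdx arrays 9 lay below every C57BL10 array, and the groups overlapped through quadriceps sample 2 and soleus sample 2. A point mutation need not remove the probed transcript, so this level is no test of the labels. The mean difference was -1.497 ± 0.25 (SE, limma adjusted p = 0.000147), a 2.82-fold lower level. In mdx5cv it was -1.25 (adjusted p = 0.00113). With only the arrays of the third scan period the mdx difference was -1.21 (adjusted p = 0.206). Utrn, the gene of utrophin, a relative of dystrophin found at the synapse and in regenerating fibres, differed by 0.20 ± 0.22 (adjusted p = 0.565). A second probe set of Utrn gave -0.67 (adjusted p = 0.131).

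Averaged over the muscles, 1194 of 7453 probe sets differed between mdx and C57BL10 (16%): 759 were higher in mdx (10.2%) and 435 lower (5.84%). With 1 probe set per gene these were 616 genes higher (10.8%) and 313 lower (5.49%) of 5703. Genes of macrophages, lysosomes, antigen presentation, matrix and regenerating fibres rose, and decreases were found among genes of the slow fibre, of fatty acid use and of the fat cell. A gene can stand in more than 1 list. An additive model on the 30 arrays with a known scan called 1284 probe sets (741 higher and 543 lower), and with scan period as a block in that model 892 (484 and 408). With chip lot as its block it called 974, of which 479 were higher and 495 lower, so the excess of increases was absent there. With the arrays of the third period alone 187 were called (146 and 41). In that fit no gene of the slow fibre, fatty acid and fat cell lists was lower, and 1 of fatty acid use was higher. With the period block 0, 8 and 2 genes of these lists were lower, and 0, 2 and 0 higher. Of the 112 genes named in the text whose averaged difference passed the threshold, 96 passed it in the additive model, 83 with the period block, 77 with the lot block and 42 in the third period alone, and the sign was kept in all 112 under these 4.

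**Figure D1:**
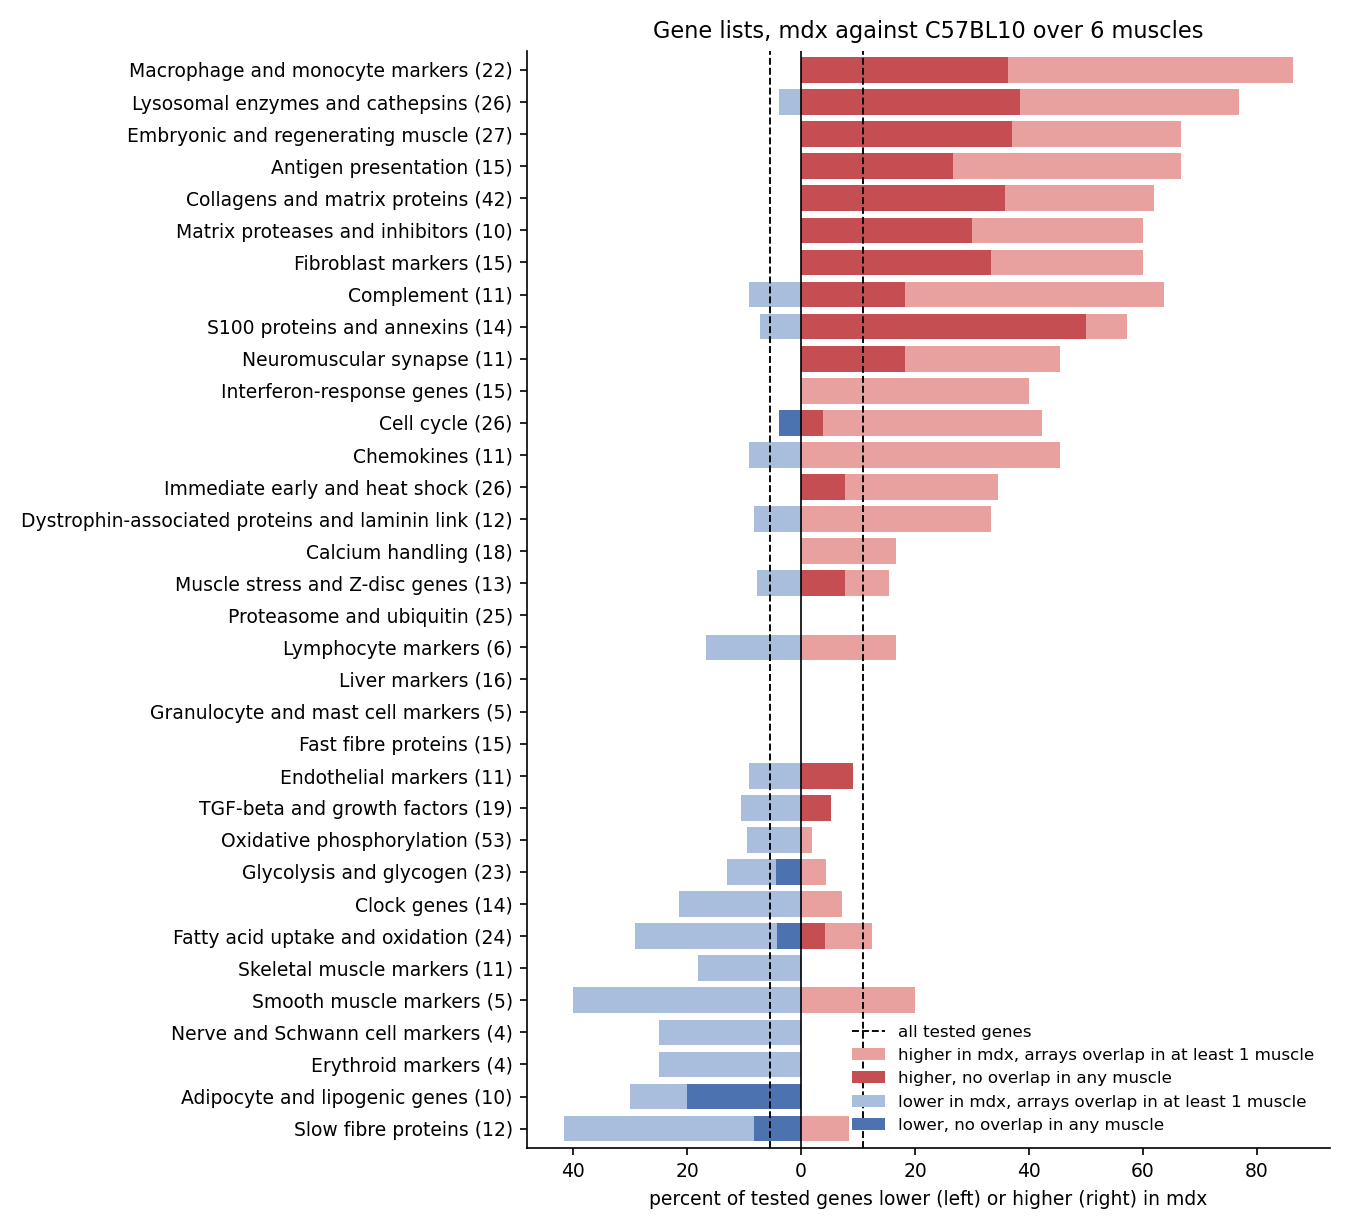
Share of the tested genes of each list that were higher (right) or lower (left) in mdx than in C57BL10, in percent, at a limma adjusted p under 0.05. The number tested stands in brackets, dark bars are genes whose mdx and C57BL10 arrays did not overlap in any of the 6 muscles, and dashed lines mark all 5703 tested genes, 10.8% higher and 5.49% lower. Macrophage markers lead with 19 of 22 higher, and slow fibre proteins have 5 of 12 lower.

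Macrophage and monocyte markers rose most often among the lists. Of 30 genes with a probe set 22 were tested, and of these 19 were higher and none lower. The median difference was 1.73 against -0.04 over all 5703 tested genes. The mean log2 signal of this list ran from 8.85 to 10.01 over the 12 C57BL10 arrays and from 9.91 to 11.67 over the 11 mdx arrays. Within each muscle every mdx array was higher than every C57BL10 array. In bulk tissue more cells of a type and more RNA per cell cannot be told apart. The median of the list was 2.55 in gastroc, 2.36 in quadriceps and 2.10 in EDL, against 1.12 in diaphragm, 0.88 in soleus and 0.71 in TA. C57BL10 diaphragm already had a mean of 10.01 on both of its arrays. In TA the C57BL10 arrays lay apart, at 8.87 and 9.95, and those of mdx were at 10.24 and 10.30. The part of the low-correlation array, C57BL10 TA sample 2, in the low TA median was not tested.

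Lgals3, the gene of galectin-3, a lectin that activated macrophages secrete, had the highest difference of any tested gene. Its signal ran from 180.8 to 712.3 with a median of 290.4 in C57BL10 and from 1165.7 to 10131.2 with a median of 5530.3 in mdx. No mdx array came down to the C57BL10 range in any muscle. The difference was 3.96 ± 0.20 (SE, adjusted p = 8.2e-13), or 15.6-fold, from 2.496 in soleus to 5.28 in gastroc. Mmp12, the macrophage elastase, ran from 50.2 to 620.9 in C57BL10 and from 246.9 to 6046.6 in mdx, with 10 of 11 mdx arrays above all C57BL10 arrays. It rose by 3.21 ± 0.26 (adjusted p = 1.9e-09), a difference that rests on a C57BL10 level at the floor of 118 on 3 arrays. Cd53, a tetraspanin of leukocytes, rose by 2.71 ± 0.26 (adjusted p = 4.1e-08), from 0.70 in TA to 4.61 in gastroc, with 3 C57BL10 arrays at the floor (in gastroc, soleus and TA), on which the sizes there depend.

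Mpeg1, which encodes a pore-forming protein of macrophages, ran from 421.0 to 2066.9 in C57BL10 and from 2750.5 to 7033.7 in mdx, without overlap over all muscles. Its difference was 2.55 ± 0.14 (adjusted p = 2.5e-12). Lilr4b, an inhibitory receptor of myeloid cells, rose by 2.92 ± 0.19 (adjusted p = 6.0e-11) from a C57BL10 median of 179.0 to an mdx median of 1259.7. Its smallest muscle difference was 1.67 in the diaphragm and its largest 4.30 in the quadriceps.

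Few markers of other leukocytes were tested. Of 15 granulocyte and mast cell markers with a probe set 5 were tested, and none passed the threshold, with differences of -0.39 to -0.17. Of 16 lymphocyte markers with a probe set 6 were tested, of which 1 was higher and 1 lower. Thy1, a gene that fibroblasts also express, rose by 1.07 ± 0.23 (adjusted p = 0.00170). Ms4a1, which encodes CD20 of B cells, fell by 0.60 on the log2 scale (SE 0.18, adjusted p = 0.0243). A second probe set of Ms4a1 gave -0.35 (adjusted p = 0.50). With 10.8% of all tested genes higher and 5.49% lower, these small counts are not read as results about those cells.

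Genes that draw monocytes or act with macrophages followed in part. Of 23 chemokines with a probe set 11 were tested, of which 5 were higher and 1 lower. Ccl2, the main attractant of monocytes, ran from 17.6 to 554.0 with 7 of 12 C57BL10 arrays at the floor, and from 476.8 to 3007.4 in mdx. It rose by 3.39 ± 0.25 (adjusted p = 3.6e-10), and 9 of 11 mdx arrays lay above all C57BL10 arrays. Ccl8 and Ccl7, related ligands, rose by 2.83 ± 0.27 and 2.27 ± 0.27, with 5 and 7 C57BL10 arrays at the floor. The probe sets of Cxcl12, a chemokine of stromal cells, disagreed: the brightest gave -0.71 and another 0.46, both past the threshold.

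Of 11 complement genes 7 were higher and 1 lower. C1qb, a chain of the first component, rose by 1.92 ± 0.13 (adjusted p = 1.9e-10), while a further probe set of it gave 0.05 (adjusted p = 0.89). C3ar1, the receptor of the C3a fragment, rose by 1.88 ± 0.21 and C1qa by 1.31 ± 0.24. Cd59a, which shields cells from the membrane attack complex, fell by 0.75 on the log2 scale (SE 0.14, adjusted p = 0.000524). It was below all C57BL10 arrays on 9 of 11 mdx arrays.

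Lysosomal enzymes and cathepsins were higher in 20 of 26 tested genes and lower in 1, with a median difference of 0.77. Ctss, the gene of cathepsin S, which trims the invariant chain of MHC class II, had a signal of 801.2 to 3806.1 in C57BL10 and 6230.6 to 22730.7 in mdx. The groups lay fully apart, and the difference of 3.09 ± 0.13 had the smallest adjusted p of the named genes (3.1e-14). Lgmn, the asparaginyl protease legumain, rose by 1.69 ± 0.14, and Laptm5, a lysosomal membrane protein of leukocytes, by 1.68 ± 0.27. A second probe set of Ctse, the aspartic protease cathepsin E, gave -0.41 (adjusted p = 0.119). By its main probe set Ctse fell by 0.74 on the log2 scale (SE 0.22, adjusted p = 0.0224). Its decrease lay mainly in the diaphragm, at -2.81, and without mdx diaphragm sample 2 the adjusted p was 0.055.

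Antigen presentation genes rose in 10 of 15 cases and fell in none. H2-Aa and H2-Ab1, the chains of an MHC class II molecule, rose by 1.98 ± 0.14 and 1.54 ± 0.17, and Cd74, their invariant chain, by 1.86 ± 0.21. Interferon-response genes were higher in 6 of 15, none of them separate in all muscles. Ifi204 rose by 0.96 ± 0.17 and Irf8, a transcription factor of myeloid cells, by 0.94 ± 0.17. Irf9 rose by 0.85 ± 0.25 (adjusted p = 0.0201), and its adjusted p was 0.079 without mdx gastroc sample 1.

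**Figure D2:**
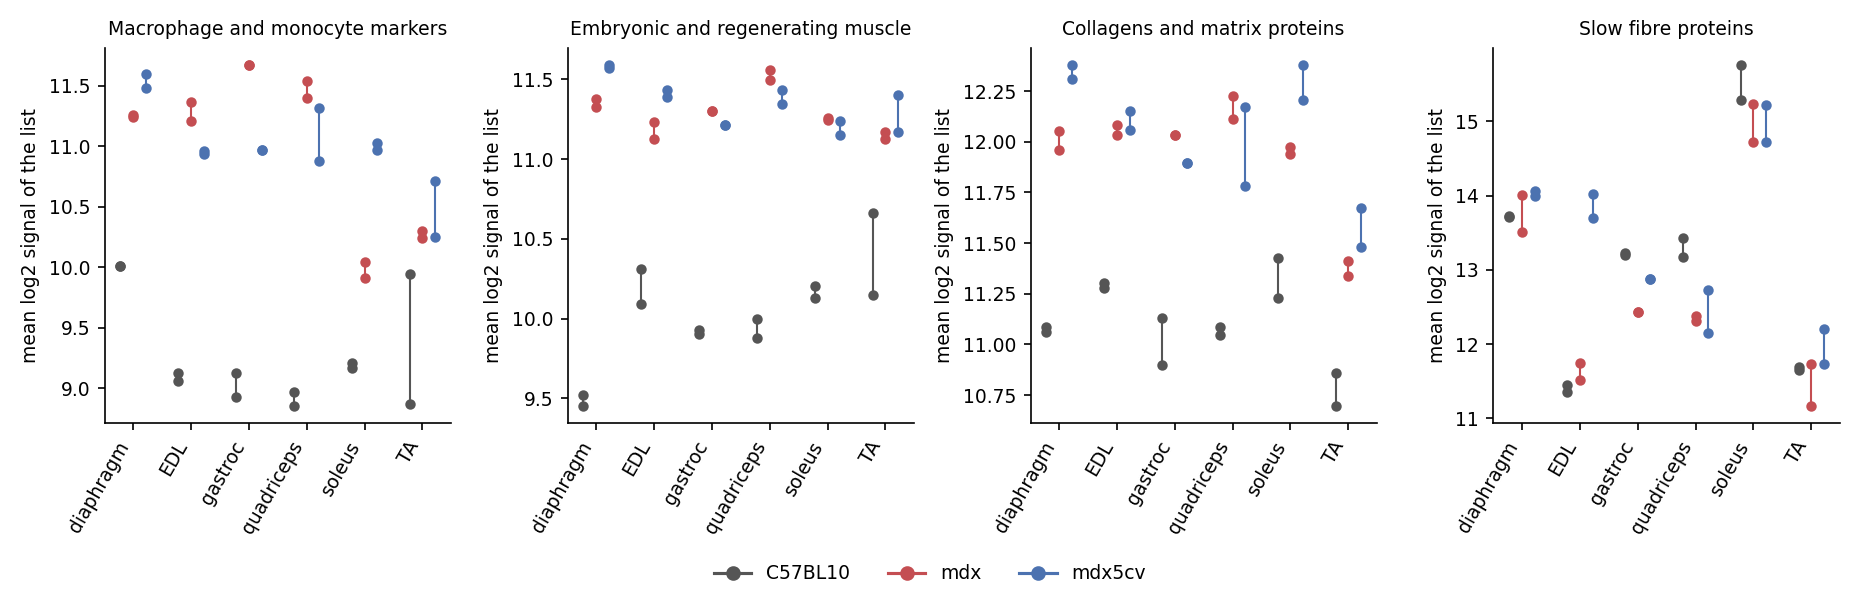
Mean log2 signal of the genes of 4 lists on each array (points), by muscle and strain; a line joins the arrays of a group, and gastroc of both mutants has 1 array. For macrophage, regeneration and matrix genes every mdx array lies above both C57BL10 arrays of its muscle, and for slow fibre proteins the C57BL10 quadriceps arrays (13.18 and 13.42) lie above those of mdx (12.32 and 12.37).

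The matrix and its cells gave 26 of 42 collagen and matrix genes higher and none lower, with a median of 0.77 and 15 genes whose arrays did not overlap in any muscle. Postn, the gene of periostin, a matricellular protein of scarring tissue, ran from 686.6 to 4265.3 in C57BL10 and from 4344.8 to 20925.0 in mdx. Every mdx array was above every C57BL10 array. It rose by 3.08 ± 0.13 (adjusted p = 4.7e-14), 8.45-fold.

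Col3a1 and Col1a1 encode fibrillar collagens. Col3a1 rose by 1.87 ± 0.14 with no overlap over 23 arrays, from a median of 5626.8 to 19147.4. Col1a1 rose by 1.52 ± 0.15 and overlapped, with 6 of 11 mdx arrays above all C57BL10 arrays. Col6a3, of the collagen that binds fibres to their basement membrane, rose by 1.87 ± 0.12 within a narrow range over muscles, 1.59 in soleus to 2.14 in diaphragm and quadriceps. Col5a2, of a minor fibrillar collagen, rose by 1.90 ± 0.14, most in gastroc at 2.57.

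Fibroblast markers rose in 9 of 15 genes and matrix proteases and their inhibitors in 6 of 10, with none lower in either list. Mmp3, the protease stromelysin-1, rose by 1.63 ± 0.27 from a C57BL10 level at the floor on 5 of 12 arrays. Ctsk, the collagen-cleaving cathepsin K, rose by 1.49 ± 0.13 with all 11 mdx arrays above all 12 C57BL10 arrays. Of 14 S100 proteins and annexins 8 rose, and 7 of these were separate in all muscles. S100a4, a marker of fibroblasts and macrophages, rose by 2.00 ± 0.14 (adjusted p = 1.8e-10), with a range of 493.0 to 1673.5 in C57BL10 and 2298.9 to 5207.7 in mdx. Anxa2 and Anxa1, which bind injured membranes, rose by 1.25 ± 0.15 and 1.23 ± 0.16, whereas Anxa6, of the same family, fell and is described with the genes changed in mdx only.

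Genes of embryonic and regenerating muscle were higher in 18 of 27 and lower in none, with a median of 1.12. Myl4, the embryonic and atrial myosin light chain, ran from 184.7 to 1232.5 with a median of 717.4 in C57BL10 and from 3828.0 to 11652.4 with a median of 7161.4 in mdx. The groups were apart in every muscle. The difference was 3.46 ± 0.18 (adjusted p = 8.2e-13), from 2.29 in TA to 5.14 in the diaphragm. A second probe set of Myl4 rose by 0.85. Myh3, the embryonic myosin heavy chain, was at the floor on 6 of 12 C57BL10 arrays, with a highest signal of 634.4, and ran from 677.3 to 4459.1 in mdx. It rose by 3.22 ± 0.20 (adjusted p = 2.2e-11).

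Myog and Myod1, factors that drive myoblasts to differentiate, were singled out after their values were seen: they rose by 1.94 ± 0.20 and 0.87 ± 0.13. Tmsb10, an actin-binding peptide of immature cells, rose by 2.68 ± 0.20 (adjusted p = 6.0e-10), between 2.30 in EDL and 2.98 in diaphragm. Its signal was 739.9 to 3571.0 in C57BL10 and 10139.6 to 32062.1 in mdx. Igf2, a growth factor of fetal and regenerating muscle, rose by 2.63 ± 0.19 (adjusted p = 3.6e-10), from a median of 4126.8 to 23041.4. Both genes were without overlap over all arrays.

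Ankrd1, a stretch-responsive protein of the sarcomere, ran from 261.6 to 1840.4 in C57BL10 and from 1656.0 to 9182.6 in mdx. Only 1 mdx array reached into the C57BL10 range of another muscle. It rose by 2.53 ± 0.17 (adjusted p = 1.0e-10). Its relative Ankrd2, which is known from slow muscle, fell by 1.09 on the log2 scale (SE 0.15, adjusted p = 1.3e-05), from -1.94 in EDL to -0.12 in diaphragm. These were 2 of the 3 of 13 muscle stress and Z-disc genes that passed, the other being Pdlim3, of the Z-disc, at 0.70 ± 0.17. Over all tested genes 10.8% were higher and 5.49% lower.

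Acetylcholine receptor subunits rose among 5 of 11 genes of the neuromuscular synapse. Chrna1, the alpha subunit, rose by 1.84 ± 0.17, Chrng, the fetal gamma subunit, by 1.81 ± 0.36, and Chrnb1, the beta subunit, by 1.29 ± 0.15. Chrnb1 lay above all C57BL10 arrays on 10 of 11 mdx arrays, while Chrng overlapped widely, with 132.2 to 4563.2 in C57BL10. Cell cycle genes rose in 11 of 26 and fell in 1. Cdk1, the mitotic kinase, rose by 1.65 ± 0.29 from the floor on 8 C57BL10 arrays, Stmn1, a tubulin-binding protein of dividing cells, by 1.23 ± 0.23 and Mad2l1, of the spindle checkpoint, by 0.97 ± 0.22. With scan period as a block 4 cell cycle genes were higher, and in the third period none.

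Of 12 proteins of the dystrophin complex and its laminin link, Cav3, the caveolin of muscle, rose by 0.58 ± 0.13, Itga7, the laminin-binding integrin subunit, by 0.43 ± 0.11 and Lama2, the laminin chain of the muscle basement membrane, by 0.42 ± 0.13. Sspn, the gene of sarcospan, which also passed and was named after its values were seen, rose by 0.41 ± 0.14 (adjusted p = 0.0480). A second probe set of Itga7 gave 0.26 (adjusted p = 0.17). Dmd was the only gene of the list that was lower. None of these increases passed with scan period as a block, and Lama2 had an adjusted p of 0.062 without mdx diaphragm sample 2. Of 18 calcium handling genes 3 were higher, with a list median of 0.09, in a comparison where 10.8% of all genes were higher: Capn2, a calcium-activated protease, by 0.65 ± 0.18, Rcan1, an inhibitor of calcineurin, by 0.57 ± 0.15 and Cacng1, a subunit of the calcium channel, by 0.39 ± 0.12. None of the 3 passed with scan period as a block, and Rcan1 had an adjusted p of 0.065 without mdx gastroc sample 1 and Cacng1 of 0.057 without mdx soleus sample 1.

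Immediate early and heat shock genes rose in 9 of 26. Mt2, a metallothionein that binds zinc, ran from 3017.4 to 6201.7 in C57BL10 and 11750.3 to 34701.0 in mdx and rose by 2.25 ± 0.13 (adjusted p = 9.9e-12). Its relative Mt1 rose by 1.39 ± 0.15. Fos, a subunit of AP-1, rose by 1.62 ± 0.16, with all 11 mdx arrays above 994.3, the highest C57BL10 signal. Each of these genes was above C57BL10 on average in all muscles.

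Metabolic genes moved in both directions, where over all tested genes 10.8% were higher and 5.49% lower. Of 24 genes of fatty acid uptake and oxidation 7 were lower and 3 higher, and 15 were lower without the pair of low-correlation arrays. Lpl, the lipoprotein lipase, ran from 5196.5 to 61212.7 in C57BL10 and 2117.7 to 31376.3 in mdx. The groups overlapped over all muscles and were apart within each. It fell by 1.02 on the log2 scale (SE 0.20, adjusted p = 0.00067), and a second probe set by 1.62. Slc27a1, a fatty acid transporter, fell by 1.55 (SE 0.27), unevenly, from -4.31 in EDL to 0.71 in gastroc. Eci1, an isomerase of beta-oxidation, fell by 0.75 (SE 0.14). Against these, Cpt1a, the liver form of the carnitine palmitoyltransferase, rose by 1.96 ± 0.18 and Pdk4, the kinase that restrains pyruvate oxidation, by 1.06 ± 0.22.

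Of 23 genes of glycolysis and glycogen 3 were lower and 1 higher. With 5.49% of all tested genes lower and 10.8% higher, the small counts here and for oxidative phosphorylation are not read as results about those lists. Ppp1r3c, which targets a phosphatase to glycogen, fell by 1.54 on the log2 scale (SE 0.19, adjusted p = 2.0e-06), and Slc2a4, the insulin-regulated glucose transporter, by 0.80 (SE 0.19). Pgam1, the non-muscle phosphoglycerate mutase, rose by 1.01 ± 0.14. Oxidative phosphorylation genes passed in 6 of 53: 5 were lower, among them Ndufa8 at -0.56 and Ndufb8 at -0.54, subunits of complex I, and Sdhb of complex II at -0.51, and Cox6a1 of complex IV was higher at 0.52. Ndufb8 and Sdhb did not keep their calls in every fit that left out 1 array. After quantile normalization 12 of the 53 were lower. No gene of 25 of the proteasome and ubiquitin list and none of 15 fast fibre proteins passed, with list medians of 0.02 and 0.16. After quantile normalization 5 of the 15 fast fibre proteins were higher and none lower, and with scan period as a block 1 was higher. The glycolysis and glycogen list had 5 genes higher and 3 lower after quantile normalization.

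Fat cell and lipogenic genes were lower in 3 of 10 and higher in none: Lpl, Fasn, the fatty acid synthase, at -0.67 ± 0.12, and Adipoq, the hormone adiponectin, at -0.39 ± 0.13. Adipoq passed in 18 of the 34 fits that each left out 1 array, with a highest adjusted p of 0.078. Alas2, an enzyme of haem synthesis in red cells, fell by 0.83 on the log2 scale (SE 0.19), the 1 of 4 erythroid markers that passed. The mean log2 signal of the erythroid list was 10.97 to 12.35 in C57BL10 and 11.03 to 11.94 in mdx. Clock genes were lower in 3 of 14 and higher in 1: Rora at -0.65, Nr1d1 at -0.61, both nuclear receptors of the clock, Arntl at -0.55 and Bhlhe40 at 0.38. Rora and Bhlhe40 did not keep their calls in every fit that left out 1 array. Smooth muscle markers split, Acta2 at 1.02 ± 0.18, which myofibroblasts also express, against Myh11 at -0.90 ± 0.21 and Tagln at -0.49 ± 0.12, of 5 tested. Of 11 endothelial markers Cldn5, of the tight junction, rose by 0.93 ± 0.14 and Flt1, a receptor of VEGF, fell by 0.61 on the log2 scale (SE 0.16). With 10.8% of all tested genes higher and 5.49% lower, the few calls among endothelial and growth factor genes are not read as results about those lists. Of 4 nerve markers Mbp, of myelin, fell by 0.49 (SE 0.16). A second probe set of Mbp gave -0.16 (adjusted p = 0.59), and its main call was not kept in every fit that left out 1 array. Among 19 growth factors and TGF-beta genes Igf2 rose and 2 fell, Mstn and Igf1, the latter by 0.35 (SE 0.12) with an adjusted p of 0.109 without C57BL10 soleus sample 2. A second probe set of Igf1 gave 0.29 (adjusted p = 0.274).

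Slow fibre proteins were lower in 5 of 12 genes and higher in 1, with a median of -0.38. Myh7, the slow myosin heavy chain, fell by 0.92 on the log2 scale (SE 0.14, adjusted p = 4.9e-05), between -2.37 in quadriceps and 0.07 in diaphragm. A second probe set of it gave -0.49 (adjusted p = 0.44). Mb, myoglobin, fell by 0.52 (SE 0.17, adjusted p = 0.0377), with an adjusted p of 0.118 without mdx gastroc sample 1. Tnni1, the slow troponin I, rose by 0.86 ± 0.14 (adjusted p = 8.3e-05). With scan period as a block, and in the third period alone, no slow fibre gene of the list passed, in either direction. The list medians by muscle were -1.05 in quadriceps, -0.93 in gastroc and -0.58 in soleus, against 0.11 in diaphragm, 0.06 in TA and -0.01 in EDL. In gastroc, with its 1 mdx array, the other muscle lists were low as well, with medians of -0.68 for skeletal muscle markers, -0.59 for fast fibre proteins and -0.585 for oxidative phosphorylation.

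The next question was which differences held in every muscle. A gene was called consistent where the averaged difference passed the threshold and, in each muscle, every mdx array lay on the same side of every C57BL10 array. This held for 190 of 7453 probe sets that were higher (2.55%) and 38 that were lower (0.510%). They are 25.0% of the 759 higher calls and 8.7% of the 435 lower ones. The sign alone was shared by all 6 muscles in 493 higher calls (6.61% of the tested probe sets, 65.0% of the higher calls) and 253 lower ones (3.39% and 58.2%). With 1 probe set per gene 162 genes were consistently higher (2.84%) and 25 lower (0.438%), and 13 consistent probe sets had no single gene symbol. Without all of TA there were 411 consistent probe sets in place of 228. The rule is easier to meet over fewer muscles, so this count does not measure the part of TA.

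Among the 162 consistently higher genes the median difference was 1.24 in quadriceps, 1.18 in gastroc, 1.13 in EDL and 1.10 in TA, against 0.86 in diaphragm and 0.83 in soleus. The smallest of a gene's 6 differences fell in soleus for 53 of them and in diaphragm for 42. It fell in quadriceps for 9. The largest fell in quadriceps for 42, in TA for 39 and in soleus for 12.

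**Figure D3:**
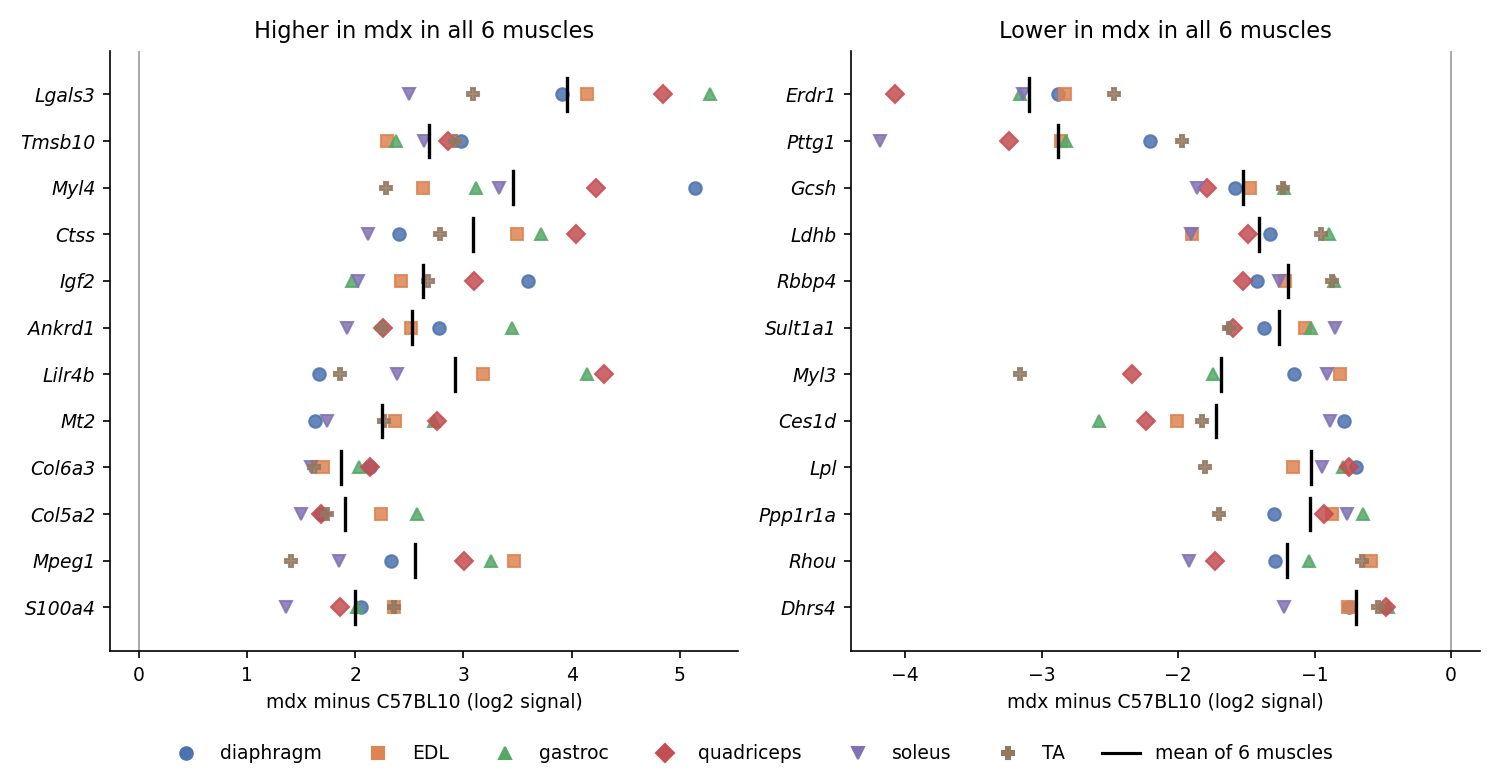
Difference between mdx and C57BL10 in log2 signal in each muscle (symbols) and as the mean of 6 muscles (black bar) for the 12 consistently higher and 12 consistently lower genes with the largest smallest difference. Lgals3 lies between 2.496 and 5.28 and Erdr1 between -4.07 and -2.47; gastroc has 1 mdx array.

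Ranked by the smallest of the 6 differences, the 12 leading consistently higher genes were Lgals3, Tmsb10, Myl4, Ctss, Igf2, Ankrd1, Lilr4b, Mt2, Col6a3, Col5a2, Mpeg1 and S100a4, described above. All 12 passed with scan period as a block and within the third period alone, where Ankrd1 had an adjusted p of 0.0085 and Col5a2 of 0.0105. That period held both strains only in EDL, quadriceps and soleus, and the 12 genes were picked on arrays that include these. In mdx5cv, which was set against the same C57BL10 arrays, they differed by 3.70, 2.56, 3.44, 2.87, 2.39, 2.82, 2.90, 2.16, 1.75, 2.15, 2.41 and 2.00 in the same order. The shared controls tie the mdx and mdx5cv values together, so their likeness is not read as a second result.

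Promoter windows of 4 of these genes are shown because the genes rose together in all 6 muscles while belonging to different cells: Ctss and Lilr4b to myeloid cells, Myl4 and Ankrd1 to the fibre. The sequences are from RefSeq, run from 250 bases before to 50 after the annotated start, and are written 5' to 3' on the strand of the gene. Capitals mark AGGAAG or its complement CTTCCT, the core read by PU.1 and other Ets factors, and CAGCTG, an E-box core read by the MyoD family. The motifs do not overlap each other and were chosen after the results were known.
Ctss, GRCm38.p6, chr3:95526536-95526835, plus strand: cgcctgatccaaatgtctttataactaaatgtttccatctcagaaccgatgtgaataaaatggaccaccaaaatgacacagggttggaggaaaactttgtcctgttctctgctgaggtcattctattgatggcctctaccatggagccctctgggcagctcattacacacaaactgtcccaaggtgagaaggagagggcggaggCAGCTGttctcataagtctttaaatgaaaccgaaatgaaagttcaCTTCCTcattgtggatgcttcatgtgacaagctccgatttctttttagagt
Lilr4b, GRCm38.p6, chr10:51480362-51480661, plus strand: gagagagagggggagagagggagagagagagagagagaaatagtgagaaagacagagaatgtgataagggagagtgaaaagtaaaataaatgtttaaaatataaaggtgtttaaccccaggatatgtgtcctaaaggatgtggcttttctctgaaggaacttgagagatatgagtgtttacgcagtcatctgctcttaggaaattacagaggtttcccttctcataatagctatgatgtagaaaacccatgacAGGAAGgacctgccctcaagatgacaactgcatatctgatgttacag
Myl4, GRCm38.p6, chr11:104550413-104550712, plus strand: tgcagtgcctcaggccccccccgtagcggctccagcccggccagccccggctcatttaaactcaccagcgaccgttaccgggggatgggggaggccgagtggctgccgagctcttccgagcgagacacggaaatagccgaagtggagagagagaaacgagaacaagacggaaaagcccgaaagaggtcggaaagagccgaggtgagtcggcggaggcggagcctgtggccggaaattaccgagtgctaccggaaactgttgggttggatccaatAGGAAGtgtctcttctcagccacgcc
Ankrd1, GRCm38.p6, chr19:36119795-36120094, minus strand: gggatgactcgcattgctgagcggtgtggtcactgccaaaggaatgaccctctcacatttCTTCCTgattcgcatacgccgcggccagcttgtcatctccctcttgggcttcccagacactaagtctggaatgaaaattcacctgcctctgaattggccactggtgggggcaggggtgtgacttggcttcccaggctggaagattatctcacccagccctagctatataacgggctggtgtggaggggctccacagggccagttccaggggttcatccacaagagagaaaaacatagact
Of the 12 genes 11 had a window in the table, of which 7 held AGGAAG on either strand and 1, Ctss, held CAGCTG. Of all 32851 windows of this length 35.4% held AGGAAG and 16.3% held CAGCTG. Of the 12 leading consistently lower genes 8 had a window, 2 with AGGAAG and 2 with CAGCTG. A match describes the letters only.

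With the arrays of all muscles pooled, every one of the 11 mdx arrays was above every one of the 12 C57BL10 arrays for 43 probe sets (0.577%) of 40 named genes. Besides those named so far these include Ccr2, the receptor of Ccl2, Csf1r, the receptor that macrophages need, Lum, a collagen-binding proteoglycan, Serpinh1, the collagen chaperone, Nes, the intermediate filament nestin, Myh8, the perinatal myosin, and Peg3, an imprinted gene. They were named after their values were seen. The reverse, every mdx array below every C57BL10 array, held for 4 probe sets (0.0537%) of 3 named genes: Erdr1, Pttg1 and Gcsh.

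The 12 leading consistently lower genes were Erdr1, Pttg1, Gcsh, Ldhb, Rbbp4, Sult1a1, Myl3, Ces1d, Lpl, Ppp1r1a, Rhou and Dhrs4. Ldhb, the lactate dehydrogenase subunit of oxidative muscle, had its highest C57BL10 signals in soleus, 28068.7 and 13864.3, where mdx had 6471.3 and 4304.1. It fell by 1.41 on the log2 scale (SE 0.17, adjusted p = 1.9e-06), between -1.90 and -0.89 over the muscles. Ces1d, a carboxylesterase that hydrolyses lipid, fell by 1.72 (SE 0.21, adjusted p = 1.7e-06), from -2.58 in gastroc to -0.79 in diaphragm.

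Sult1a1, a sulfotransferase, fell by 1.26 (SE 0.24) with 10 of 11 mdx arrays below all C57BL10 arrays, 2 of them at the floor. Dhrs4, a retinol and carbonyl reductase, fell by 0.70 (SE 0.14, adjusted p = 0.00119), from -1.23 in soleus to -0.46 in gastroc. Ppp1r1a, an inhibitor of protein phosphatase 1, fell by 1.03 (SE 0.32, adjusted p = 0.0296). It passed in 27 of the 34 fits that each left out 1 array, and the adjusted p was at most 0.061, without C57BL10 gastroc sample 1. Of the 12 genes 2 did not pass with scan period as a block, Myl3 at an adjusted p of 0.108 and Ppp1r1a at 0.216. Within the third period 5 did not: these and Sult1a1 at 0.189, Lpl at 0.111 and Dhrs4 at 0.235.

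The last question was which differences belonged to mdx and not to mdx5cv. A probe set was called changed in mdx only where mdx differed from C57BL10, mdx differed from mdx5cv in the same direction, and mdx5cv did not pass against C57BL10. mdx differed from mdx5cv in 40 probe sets (0.537%), and mdx5cv from C57BL10 in 1122 (15.1%). The rule held for 18 of 7453 probe sets (0.242%), 4 higher (0.0537%) and 14 lower (0.188%). They stand for 14 genes by their main probe set, 1 further probe set of a gene and 3 probe sets with no single symbol. Without the direct test of mdx against mdx5cv the number would be 428, since a difference past the threshold in one strain and not in the other is no test of the difference. Without mdx quadriceps sample 1 it was 29, and without C57BL10 soleus sample 2 it was 10.

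**Figure D4:**
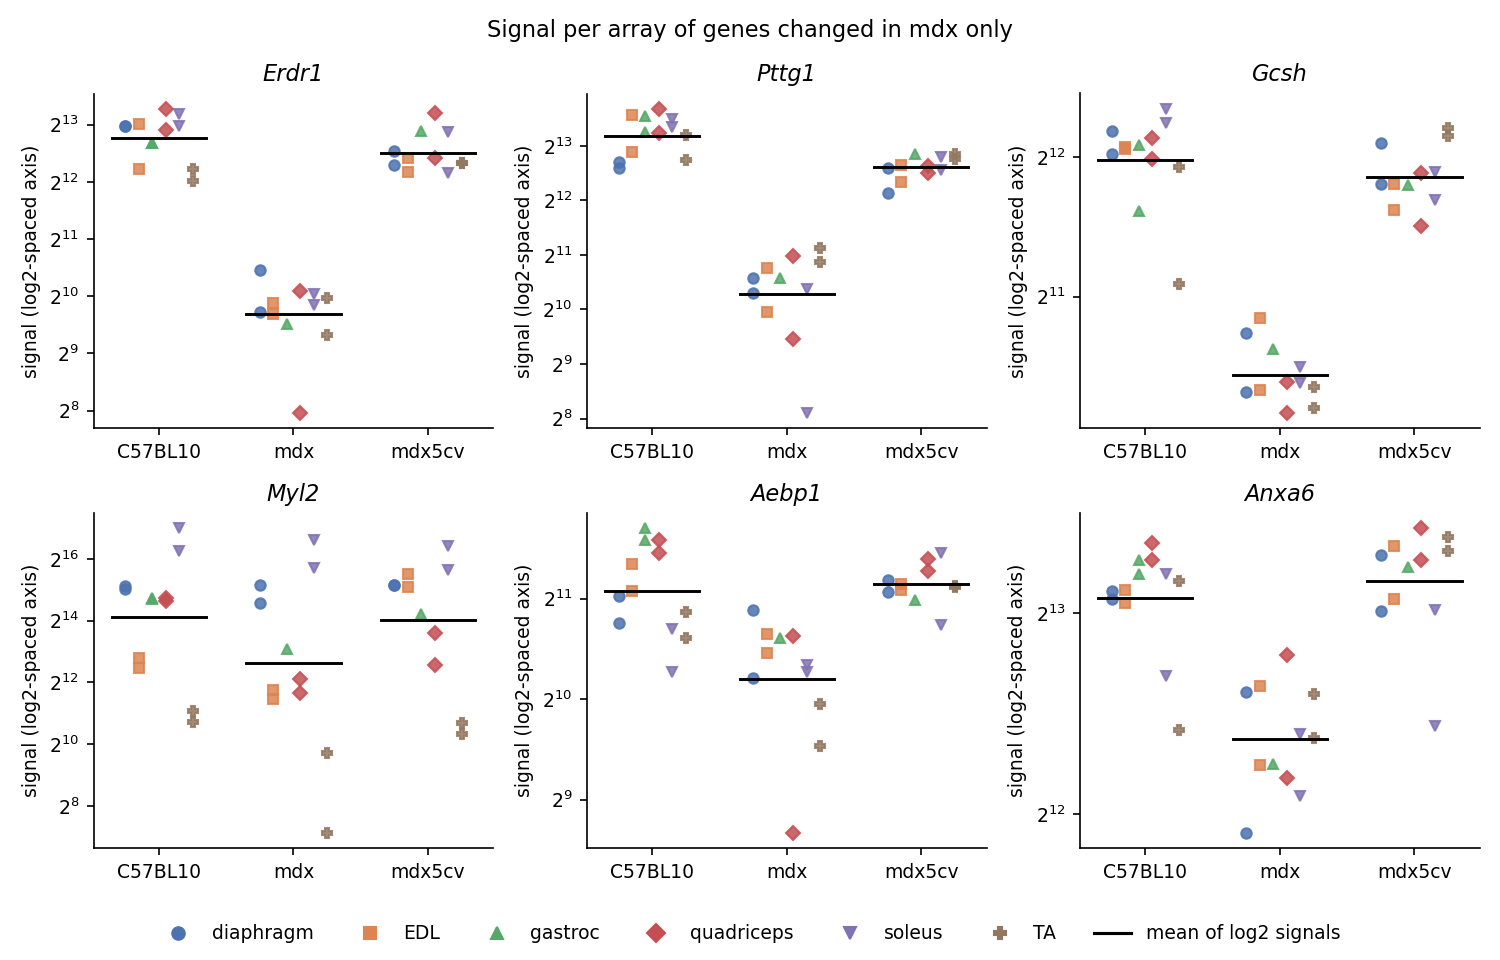
Signal of 6 genes changed in mdx only on each array, on a log2-spaced axis, by strain, with muscles as symbols and the mean of the log2 signals as a bar. For Erdr1, Pttg1 and Gcsh the 11 mdx arrays lie below all 12 C57BL10 and all 11 mdx5cv arrays, while Myl2, Aebp1 and Anxa6 overlap.

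Erdr1, a secreted factor first described in red cell differentiation, had the largest decrease of all tested genes. Its signal ran from 4112.9 to 9922.7 with a median of 7845.6 in C57BL10, from 248.2 to 1401.4 with a median of 923.9 in mdx and from 4557.4 to 9378.0 with a median of 5432.4 in mdx5cv. Every mdx array lay below every array of either other strain. The difference was -3.09 ± 0.19 (SE, adjusted p = 2.2e-11), 8.51-fold, against C57BL10, and -2.87 (adjusted p = 2.6e-09) against mdx5cv. mdx5cv differed from C57BL10 by -0.22 (adjusted p = 0.526). A second, dimmer probe set of Erdr1 gave -0.57 (adjusted p = 0.20), and the name of the main one marks it as able to bind transcripts of similar sequence.

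Pttg1 encodes securin, which restrains the separation of sister chromatids until anaphase. It ran from 6140.1 to 13122.9 in C57BL10, from 274.3 to 2238.9 in mdx and from 4498.4 to 7396.2 in mdx5cv. The mdx arrays were again apart from all others. The difference from C57BL10 was -2.88 ± 0.21 (adjusted p = 3.6e-10), 7.37-fold, and from mdx5cv -2.32 (adjusted p = 2.6e-07). For mdx5cv the difference from C57BL10 was -0.56 (adjusted p = 0.0761), close to the threshold, and with all 36 columns Pttg1 no longer met the rule. It was the 1 cell cycle gene that fell, while 11 of the list rose.

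Gcsh, the lipoyl-carrying H protein of the glycine cleavage system, ran from 2176.4 to 5213.9 in C57BL10, from 1147.5 to 1844.8 in mdx and from 2908.0 to 4748.2 in mdx5cv. There was no overlap with either strain. It differed from C57BL10 by -1.53 ± 0.12 (adjusted p = 1.1e-09) and from mdx5cv by -1.40 (adjusted p = 1.0e-07). Its differences over the muscles were between -1.86 and -1.23. In the third scan period the 3 genes kept their call, with differences from C57BL10 of -3.18, -3.70 and -1.69.

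Slow fibre genes made up a part of this set. Myl2, the slow myosin regulatory light chain, fell by 1.44 on the log2 scale (SE 0.22, adjusted p = 4.4e-05), Myl3, the slow essential light chain, by 1.69 (SE 0.21, adjusted p = 2.8e-06) and Tpm3, the slow tropomyosin, by 0.50 (SE 0.14, adjusted p = 0.0179). In mdx5cv they differed from C57BL10 by -0.06, -0.54 and 0.21. Myl3 in the EDL was 1192.7 and 1248.0 in C57BL10, 428.8 and 1124.9 in mdx and 14163.4 and 29454.0 in mdx5cv. In the TA it was 11528.4 and 8248.8, 789.1 and 1512.7, and 1925.3 and 2592.6. The mean log2 signal of the whole slow fibre list in the EDL was 11.35 and 11.45 in C57BL10, 11.52 and 11.75 in mdx and 13.69 and 14.02 in mdx5cv. The part of the mdx5cv EDL arrays in these calls was not tested by itself. With the EDL left out in all 3 strains Myl2, Myl3 and Tpm3 no longer met the rule, and neither did Ms4a1, Mtfr1l, Paqr7, Ogt and Alad. In the additive model on the arrays with an experiment file the 3 slow fibre genes did not pass against mdx5cv, with adjusted p of 0.113, 0.278 and 0.246 without a period term and 0.104, 0.260 and 0.227 with it. Against C57BL10 their adjusted p was 0.0158, 0.0368 and 0.203 without the period term and 0.0814, 0.108 and 0.341 with it.

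The other lower genes were Anxa6, an annexin of membrane repair, at -0.71 ± 0.13 (adjusted p = 0.000302), Mtfr1l, a mitochondrial protein, at -0.77 ± 0.12 (adjusted p = 3.2e-05), Aebp1, a secreted matrix protein, at -0.84 ± 0.17 (adjusted p = 0.00102), Paqr7, a membrane progestin receptor, at -0.53 ± 0.13, and Ms4a1. The second probe set of Ms4a1 passed neither against C57BL10, at -0.35 (adjusted p = 0.50), nor against mdx5cv, at -1.12 (adjusted p = 0.236). Anxa6 ran from 3842.3 to 7087.2 in mdx, with 7 of 11 arrays below all C57BL10 arrays. Mtfr1l ran from 2268.6 to 4242.7 in mdx against 3015.4 to 6560.7 in C57BL10, and 8 mdx arrays lay below the C57BL10 range. Aebp1 was not lower to the same degree in all muscles, at -1.87 in quadriceps, where mdx sample 2 gave the lowest value of 407.4, and -0.18 in soleus.

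The 3 named higher genes had smaller differences. Ogt, which attaches N-acetylglucosamine to proteins, rose by 0.39 ± 0.13 (adjusted p = 0.0430), Alad, an enzyme of haem synthesis, by 0.40 ± 0.14 (adjusted p = 0.0470) and Tspan4, a tetraspanin, by 0.78 ± 0.26 (adjusted p = 0.0432). Their mdx and C57BL10 ranges overlapped widely. Left out one at a time, the 34 arrays kept the call in all fits for Erdr1, Gcsh, Aebp1, Anxa6, Mtfr1l and Myl2, in 33 for Myl3, 32 for Tpm3, 30 for Pttg1, 23 for Ms4a1, 15 for Ogt and 10 each for Alad, Paqr7 and Tspan4. Over 22 other settings the rule held in 22 for Erdr1 and Gcsh, 21 for Pttg1 and Anxa6, 20 for Mtfr1l, 17 for Myl2, 15 for Aebp1, 14 for Myl3, 13 for Ms4a1 and Tpm3, 8 for Tspan4, 7 for Alad and Paqr7 and 6 for Ogt. Aebp1 missed it after quantile normalization, where mdx against mdx5cv had an adjusted p of 0.0536, and with chip lot as a block, at 0.675. Without mdx gastroc sample 1, and so without gastroc in the average, the adjusted p against C57BL10 was 0.064 for Ms4a1, 0.123 for Tpm3 and 0.264 for Tspan4. It was 0.098 for Ogt without C57BL10 EDL sample 1 and 0.091 for Alad without C57BL10 quadriceps sample 1.

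In 5 probe sets mdx and mdx5cv passed against C57BL10 in opposite directions. Spg21, the gene of maspardin, named after its values were seen, ran from 553.4 to 1891.3 in C57BL10, from 234.2 to 663 in mdx and from 1969.6 to 4501.9 in mdx5cv. The mutants lay apart from each other and mdx5cv lay above C57BL10, while mdx and C57BL10 overlapped. Its difference from C57BL10 was -1.56 ± 0.21 (adjusted p = 6.9e-06) in mdx and 1.33 ± 0.21 (adjusted p = 6.1e-05) in mdx5cv, from a probe set whose name marks it as able to bind similar transcripts. Rbbp4, a histone-binding chromatin protein, ran from 1232.7 to 3554.5 in C57BL10, from 659.7 to 1418.1 in mdx and from 2402.1 to 4385.5 in mdx5cv. It differed by -1.19 ± 0.14 (adjusted p = 8.1e-07) in mdx and 0.55 ± 0.14 (adjusted p = 0.00718) in mdx5cv. Arntl, the clock activator BMAL1, gave -0.55 and 0.58. Myh7 gave -0.92 and 0.59, from a probe set whose name carries the same mark as that of Spg21. A second probe set of Myh7 gave -0.49 (adjusted p = 0.44) in mdx and 0.04 (adjusted p = 0.97) in mdx5cv. The part of the mdx5cv EDL arrays, where the slow fibre list was high, in the Myh7 values was not tested. The fifth, AI506816, gave -0.38 and 0.40.

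The strain difference itself differed between muscles, by a joint F test over the 6 muscles, in 25 of 7453 probe sets (0.335%). Without C57BL10 TA sample 1, which leaves the low-correlation array alone in its group, 458 were called, and without mdx EDL sample 1 only 8.

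**Figure D5:**
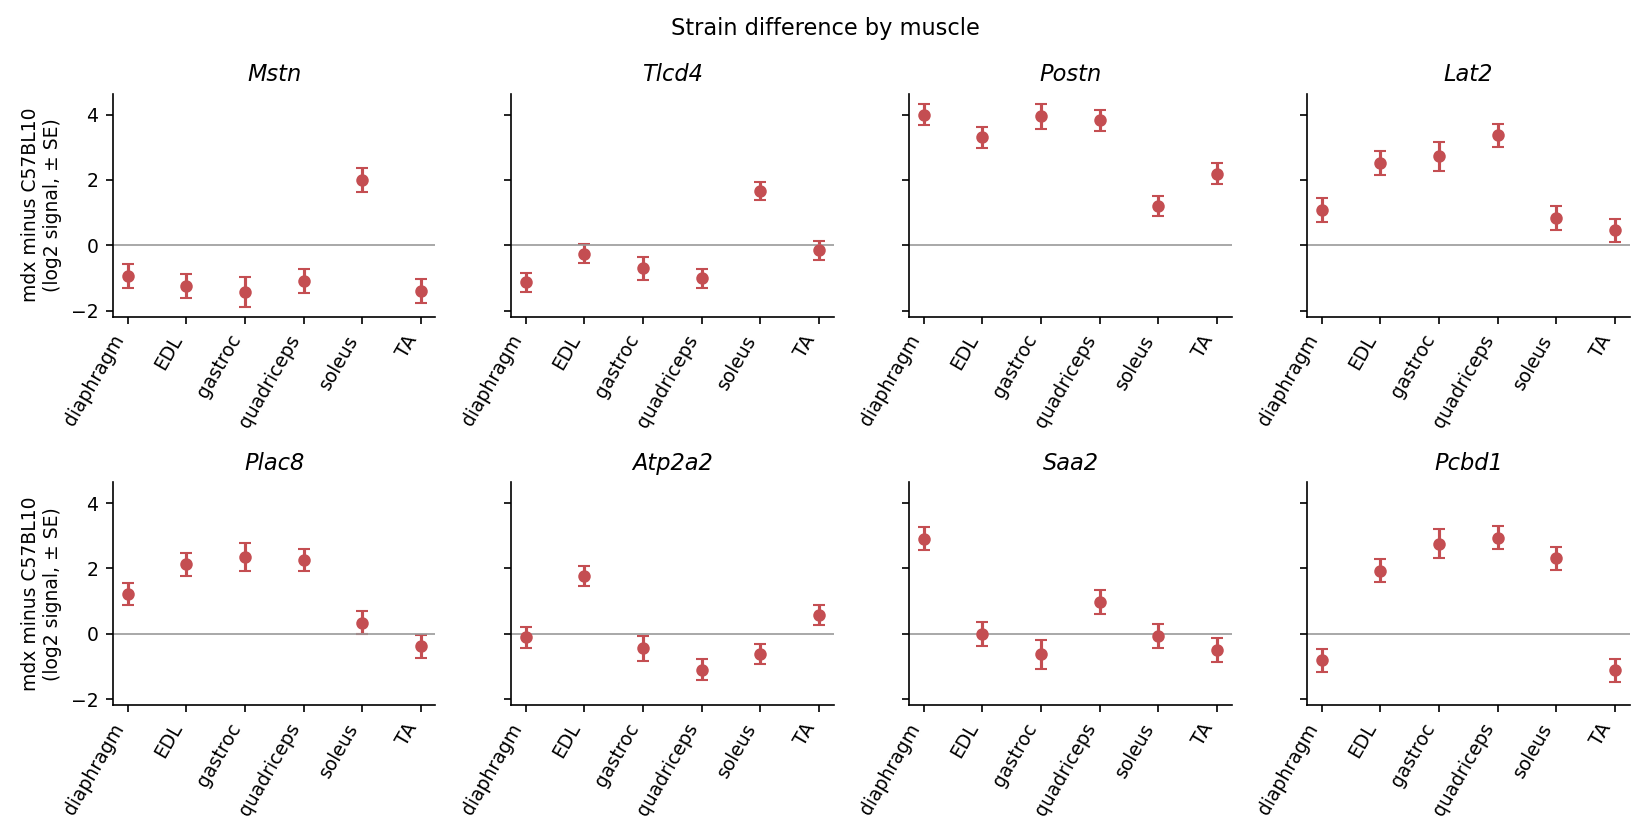
Difference between mdx and C57BL10 in log2 signal, with its SE from the limma fit, in each muscle for 8 genes whose difference varied between muscles. Mstn is below 0 in 5 muscles and at 2.01 in soleus, and Saa2 is at 2.92 in diaphragm.

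Mstn, the gene of myostatin, which limits muscle growth and is known to be low in slow muscle, differed by -1.43 to -0.95 in 5 muscles, of which TA passed alone (adjusted p = 0.0441), and rose in soleus by 2.01 ± 0.37 (SE, adjusted p = 0.00374). In soleus the signals were 360.9 and 674.3 in C57BL10, 1783.8 and 2213.3 in mdx and 414.7 and 406.1 in mdx5cv. Both mdx soleus arrays lay above those of the other strains. Averaged over muscles Mstn fell by 0.69 on the log2 scale (SE 0.16, adjusted p = 0.00326), and the F test gave an adjusted p of 0.00669. Tlcd4, which encodes a membrane protein, was higher in soleus as well, with 451.5 and 774.3 in C57BL10 soleus, 1883.4 and 1853.0 in mdx soleus and 559.1 and 504.2 in mdx5cv soleus, a difference of 1.66 ± 0.29 (adjusted p = 0.00245). In the other muscles it was -1.14 to -0.16. In the same soleus arrays the fast fibre list had a mean log2 signal of 14.74 and 15.04 in C57BL10, 15.07 and 15.80 in mdx and 14.47 and 14.80 in mdx5cv, and the slow fibre list 15.29 and 15.76, 14.73 and 15.24, and 14.72 and 15.22. The part of the fibre types in the Mstn and Tlcd4 values was not tested. Without C57BL10 soleus sample 1 the F test gave 0.080 for Mstn and 0.077 for Tlcd4, and without mdx soleus sample 2 it gave 0.0637 for Mstn and 0.0433 for Tlcd4. That mdx array had the highest actin and GAPDH 3'/5' ratios of the set, 1.964 and 3.445, against 0.925 and 1.383 in mdx soleus sample 1, and their part was not tested.

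Postn differed least in soleus, at 1.197 ± 0.31 (adjusted p = 0.0528), and most in diaphragm, at 4.002 ± 0.31 (F test adjusted p = 0.00669). It kept the F call in each of the 34 omissions. Lat2, an adaptor of leukocyte receptors, rose by 3.36 ± 0.36 in quadriceps and differed by 0.46 ± 0.36 in TA (F test adjusted p = 0.0173). Plac8, which myeloid cells express, rose by 2.36 ± 0.42 in gastroc and differed by -0.38 ± 0.35 in TA (F test adjusted p = 0.0173). The macrophage list also had its lowest median in TA, where its C57BL10 array means were 8.87 and 9.95. The part of the list in these values was not tested. The F test missed the threshold for Lat2 without C57BL10 soleus sample 1, at 0.0546, and for Plac8 without mdx TA sample 2, at 0.0676. Without mdx EDL sample 1 it gave 0.0525 for Lat2 and 0.0551 for Plac8.

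Saa2, an acute phase protein, was high in mdx diaphragm, 7952.7 and 13383.9, against 1407.5 and 1325.2 in C57BL10 diaphragm and 981.2 and 858.3 in mdx5cv diaphragm. The next highest array of another muscle, mdx quadriceps sample 2, had 1063.9. The diaphragm difference was 2.92 ± 0.36 (adjusted p = 3.0e-05), and the other muscles ran from -0.63 to 0.97. A second probe set gave -0.31 averaged over muscles (adjusted p = 0.44). Without mdx diaphragm sample 2 the F test gave 0.0598. Atp2a2, the slow calcium pump, rose in EDL by 1.77 ± 0.31 (adjusted p = 0.0013), fell in quadriceps by 1.10 (SE 0.31, adjusted p = 0.0466), and averaged 0.01 ± 0.13. Its F test gave 0.0724 without mdx EDL sample 2 and 0.0723 without mdx EDL sample 1, the array whose description names mdx5cv.

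Pcbd1, a pterin dehydratase that is also a cofactor of the liver factor HNF1, had the smallest p of the F test (adjusted p = 7.2e-05). It rose by 1.94 to 2.94 in EDL, gastroc, quadriceps and soleus, against C57BL10 arrays of which 5 were at the floor, in gastroc, quadriceps and soleus, so that the sizes there depend on the floor. It differed by -0.81 ± 0.35 in diaphragm (adjusted p = 0.427) and -1.12 ± 0.35 in TA (adjusted p = 0.0897). In C57BL10 it was 5421.5 and 6709.6 in diaphragm, 575.2 and 496.4 in TA and at most 164.5 elsewhere. The liver markers had the same order: their mean log2 signal was 14.97 and 14.98 in C57BL10 diaphragm, 11.26 and 10.96 in TA and 7.76 to 8.14 in the other C57BL10 muscles. In mdx it was 14.84 and 15.44 in diaphragm, 9.15 and 9.34 in TA, 8.34 and 9.80 in quadriceps and 7.79 to 7.95 elsewhere. None of 16 liver genes passed the averaged test, with a list median of -0.17 and muscle medians from -2.06 in TA to 1.17 in quadriceps. The part of this liver signal in the values of Pcbd1, Saa2 and other genes that liver expresses, such as Ces1d, Sult1a1, Dhrs4 and Alad, was not tested.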

How the data were processed

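The deposited value table gives 1 intensity for each of 12488 probe sets in 36 columns. Per the labels each column is 1 hybridised sample, and how the signal was computed from the probes was not stated in the files or labels read. The authors had scaled the intensities, since 2% trimmed means per column ran from 1500.4 to 1501.3. Probe sets were named from the platform annotation, 10855 with 1 symbol, 396 with several and 1237 with none. The deposited intensities are linear, and for log2 values they were floored at 118, the 20th percentile of the table, first. The test covered the 7453 probe sets whose mean linear signal over the 34 arrays of all 3 strains reached the 40th percentile. A few bright arrays could therefore carry a probe set past the filter. A gene was represented by its probe set of highest mean.

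limma 3.58.1 in R 4.3.3 fitted 18 strain-by-muscle means to 34 arrays (16 residual degrees of freedom, eBayes with a trend), with Benjamini-Hochberg adjustment over all tested probe sets and a threshold of 0.05, two-sided. The code was tested on simulated data. The number of arrays limits the precision. Scan periods are runs of scan days, from 30 experiment files, separated by more than 30 days.

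The members and gene lists were chosen with earlier results of these data known. Named were Dmd and Utrn, the 12 higher and 12 lower consistent genes with the largest smallest muscle difference, all genes changed in mdx only, up to 3 genes per list in its main direction and 2 in the other, and the 8 genes with the smallest p of the F test. Alternatives changed the normalization, floor, filter, blocks, arrays and muscles; 2 of them, on the arrays with an experiment file and on omissions combined with mdx EDL sample 1, were chosen after seeing the data.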

Additional observations from a re-analysis of the deposited data

Results flagged for a closer look

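The mdx difference from C57BL10 varied between the 6 muscles for 10 named genes, by the joint F test of the limma fit with adjustment over 7453 probe sets. Pcbd1 had the smallest adjusted p (7.2e-05), with differences of 2.94 in quadriceps and -1.12 in TA. Saa2, Mstn, Postn and Tlcd4 shared an adjusted p of 0.00669: Saa2 was raised in diaphragm (2.92), Mstn and Tlcd4 in soleus (2.01 and 1.66), and Postn ranged from 1.197 in soleus to 4.002 in diaphragm. Atp2a2, Lat2 and Plac8 shared an adjusted p of 0.0173, Atp2a2 with 1.77 in EDL and -1.10 in quadriceps, Lat2 with 3.36 in quadriceps and Plac8 with 2.36 in gastroc.

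Tnni1, the slow troponin I, had an F test adjusted p of 0.0234, with 1.80 in EDL and -0.82 in soleus, and Myh3, the embryonic myosin, one of 0.0393, with 4.79 in quadriceps and 1.05 in TA. Leaving out 1 array at a time, the F call held in 34 of 34 fits for Pcbd1 and Postn, in 24 for Tnni1 and in 13 for Myh3. The highest adjusted p was 0.0887 for Tnni1, without C57BL10 soleus sample 2, and 0.1003 for Myh3, without mdx TA sample 2. Without mdx EDL sample 1, whose description names mdx5cv, the F test gave 0.0525 for Tnni1 and 0.0723 for Myh3, and without mdx soleus sample 2 it gave 0.0637 for Tnni1.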

How the results depend on the processing

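The averaged comparison called 1066 probe sets after quantile normalization, 1622 without the 2 low-correlation arrays, 974 with chip lot as a block (479 higher and 495 lower, against 759 and 435) and 187 with the arrays of the third scan period, a fit on fewer arrays. Leaving out 1 array at a time gave 957 (without mdx EDL sample 1) to 1565 (without C57BL10 TA sample 1). The consistent count of 228 was 355 without the 2 low-correlation arrays, 371 without these and mdx EDL sample 1, 411 without TA, 393 with the arrays that have an experiment file and 746 where overlap was allowed, with 225 to 348 over single omissions. The mdx-only count of 18 was 4 in the third scan period, 10 with scan day as a random block, 9 with chip lot as a block, 11 without EDL and 428 without the test against mdx5cv, with 10 to 29 over single omissions. The count of probe sets that differed between muscles, 25, was 13 without a filter on low values, 67 without the 2 low-correlation arrays, 44 without these and mdx EDL sample 1, 44 with all 36 columns and 56 with array weights, with 8 to 458 over single omissions. The causes were not tested. With the sample number as a replicate block the averaged comparison called 1272, mdx only 21 and the muscle test 38, and all 112 named genes past the threshold still passed. Whether sample numbers paired some of the samples cannot be decided from their deviations. For these, r over 120 pairs of groups ran from -0.356 to 0.632, with a median of 0.052 and 47 pairs over 0.1. Atp2a2, whose averaged difference did not pass, changed sign in the third scan period (-0.073), with all 36 columns (-0.059), without EDL (-0.34) and without TA (-0.10), and ran from -0.066 to 0.103 over single omissions, 8 of them below 0. Saa2 changed sign without the diaphragm (-0.044). The sign was kept by the 112 named genes in every other alternative. Signal over background limits what can be said of genes with C57BL10 arrays at the floor, whose differences depend on it.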
